A study of Mus musculus with 8 samples.

Results

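The genes of the 4 Hox clusters were followed in mouse embryonic stem cells that lacked β-catenin or carried it, with and without an inhibitor of the kinase GSK3. Every gene whose symbol is Hox, a cluster letter from a to d and a paralogue number was taken, which gave 39 genes of the 48440 in the table of estimated counts. The knock-out cells (CTNNB1-/-, Ctnnb1 encodes β-catenin) and the parental cells (CTNNB1+/+) were both of the 129/Ola background. Each was grown for 72 hours with CHIR99021, the GSK3 inhibitor, at 3 μM, or with the vehicle DMSO at 0.3 μl/ml. All cells grew in medium with serum on gelatin, without feeder cells. The 4 groups were knock-out with CHIR99021, knock-out with DMSO, parental with CHIR99021 and parental with DMSO, with 2 libraries of polyadenylated RNA each. Since genotype and cell line coincide, a difference between knock-out and parental cells cannot be told apart from one between lines. How many clones or cultures stand behind the libraries is not given in the sources used here, and the p-values below therefore describe variation among libraries that need not be biological replicates.

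Hox genes encode homeodomain transcription factors that give cells their position along the head-to-tail axis of the embryo. Within a cluster, genes with low numbers lie at the 3′ end and are switched on early and far forward in the embryo, while genes with high numbers lie at the 5′ end and mark the trunk and tail. In embryonic stem cells the clusters are held largely silent under Polycomb repression. Wnt signals, which stabilise β-catenin by holding back GSK3, act with FGF to open the clusters in the tail bud, in part through the Cdx factors.

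The results turn on Hoxb9 and Hoxc13, and their homeoboxes are shown because members with one number can share sequence that a short read does not resolve. Each line gives the 180 coding bases of the DNA-binding homeodomain, from transcripts of the GENCODE M21 annotation of GRCm38, found in 38 of the 39 genes by a conserved stretch of the recognition helix. In the line of Hoxa13, capitals mark the bases that differ from the line above.
Hoxb9: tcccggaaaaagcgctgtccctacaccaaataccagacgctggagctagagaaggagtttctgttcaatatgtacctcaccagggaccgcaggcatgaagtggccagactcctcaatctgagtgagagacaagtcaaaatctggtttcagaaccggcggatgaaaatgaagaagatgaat
Hoxc13: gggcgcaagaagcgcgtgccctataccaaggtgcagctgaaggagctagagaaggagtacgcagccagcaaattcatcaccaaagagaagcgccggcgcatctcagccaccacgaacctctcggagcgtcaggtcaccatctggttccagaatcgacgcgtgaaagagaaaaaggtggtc
Hoxa13: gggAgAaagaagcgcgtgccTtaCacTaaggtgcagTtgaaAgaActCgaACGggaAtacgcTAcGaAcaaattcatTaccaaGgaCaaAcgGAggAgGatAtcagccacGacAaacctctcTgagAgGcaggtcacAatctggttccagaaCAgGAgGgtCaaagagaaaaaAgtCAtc
Hoxb9 lies on the plus strand at chr11:96271457-96276595 and Hoxc13 on the plus strand at chr15:102921103-102928814. The closest Hox homeobox to that of Hoxc13 was that of its paralogue Hoxa13 (chromosome 6, minus strand), with 77.2% identity and 41 differing bases. For Hoxb9 it was that of its paralogue Hoxd9, with 84.4% identity and 28 differing bases. Hoxd9 had 13 counts over all libraries and Hoxb9 525. Of the 31-base words of the Hoxb9 transcripts, 0.782% also occur on the same strand in transcripts of another gene, chief among them Hoxd9, and for Hoxc13 the share was 0.0823%. Estimated counts are not whole where reads are divided among transcripts of several genes. Those of Hoxb9 were not whole in 8 of the 8 libraries, and those of Hoxc13 in 0.

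Library totals ran from 23650572 to 27680649 estimated counts. Levels are given as CPM, a gene's counts relative to the library size after scaling by the trimmed mean of M values, and 3 counts, the limit that a count of 0 allows, correspond to 0.107 to 0.129 CPM. Ctnnb1 was at 8.7 and 9.42 CPM in knock-out cells with CHIR99021, 7.98 and 10.7 CPM in knock-out cells with DMSO, 813 and 843 CPM in parental cells with CHIR99021, and 887 and 906 CPM in parental cells with DMSO. The 8 embryonic stem cell markers summed to 5590 to 6620 CPM in every library, which fits the labelled cell type. Fewer cells of a type and less RNA per cell cannot be told apart in these bulk libraries, which bears on each Hox value at this low level.

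The clusters were close to silent in all 4 groups. The 39 genes held 1903 counts over the 8 libraries together, and Hoxb9 and Hoxc13 held 40.5% of them. Hoxb6 and Hoxd12, a central and a posterior member, had 0 counts in every library. A further 18 genes had 1 to 9 counts over all 8 libraries, and 19 had 10 or more. The filter on low counts (edgeR filterByExpr, about 10 counts in 2 libraries) left 6 genes for testing, among them Hoxa7, Hoxb9, Hoxc4, Hoxc13 and Hoxd13. No untested gene passed 12 counts in any library.

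**Figure D1:**
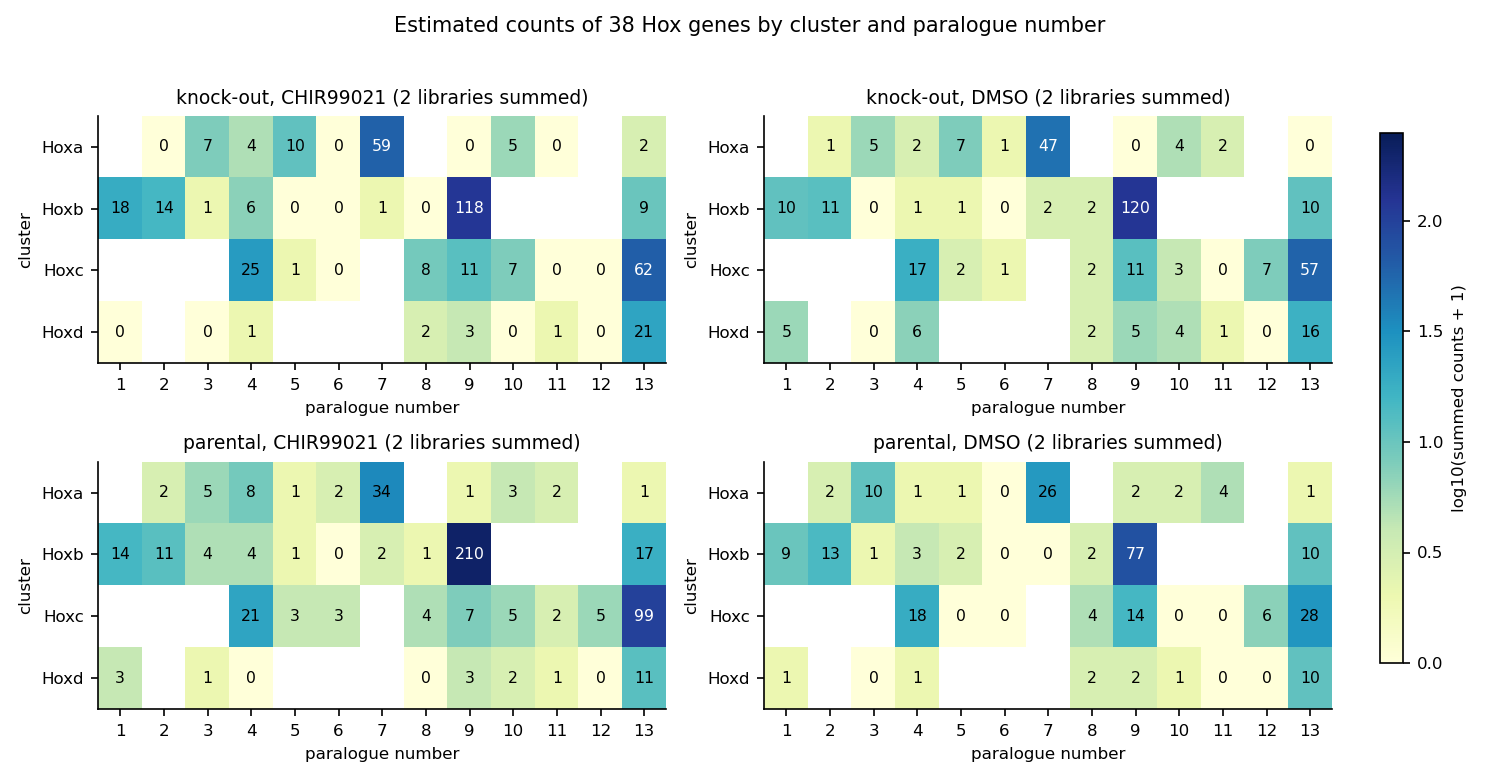
Estimated counts of 38 Hox genes, summed over the 2 libraries of a group, by cluster (rows) and paralogue number (columns), with the colour on a log10(count + 1) scale; blank squares hold no gene shown. Hoxb9 holds 210 counts in parental cells with CHIR99021 and 77 to 120 in the other groups, while most squares hold under 10.

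Per kilobase of the longest annotated transcript, averaged over the 8 libraries, Hoxb9 stood first with 0.991 CPM per kb, while Hoxc13 had 0.487, Hoxa7 0.392 and Hoxc4 0.187 CPM per kb. Hoxb1 came next with 0.119, ahead of Hoxd13 with 0.113 and Hoxb13 with 0.103 CPM per kb, and neighbours that close in the order do not differ beyond the spread of their libraries. Hoxb9, Hoxc13, Hoxa7 and Hoxc4 did not sit side by side, whereas Hoxb1 and Hoxb2, with 51 and 49 counts over all libraries, are neighbours. In the b cluster, which spans 174 kb on chromosome 11, Hoxb9 stood between Hoxb13 and Hoxb8, which had 46 and 5 counts over all libraries. In the a cluster, which spans 105 kb on chromosome 6, Hoxa7 had 166 counts over all libraries and Hoxa2 to Hoxa6 had 3 to 27 each. In the c cluster, which spans 116 kb on chromosome 15, Hoxc13 and Hoxc4 are the genes at its ends. The d cluster, which spans 96.8 kb on chromosome 2, held the fewest counts, 105 in all, of which Hoxd13 held 58.

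**Figure D2:**
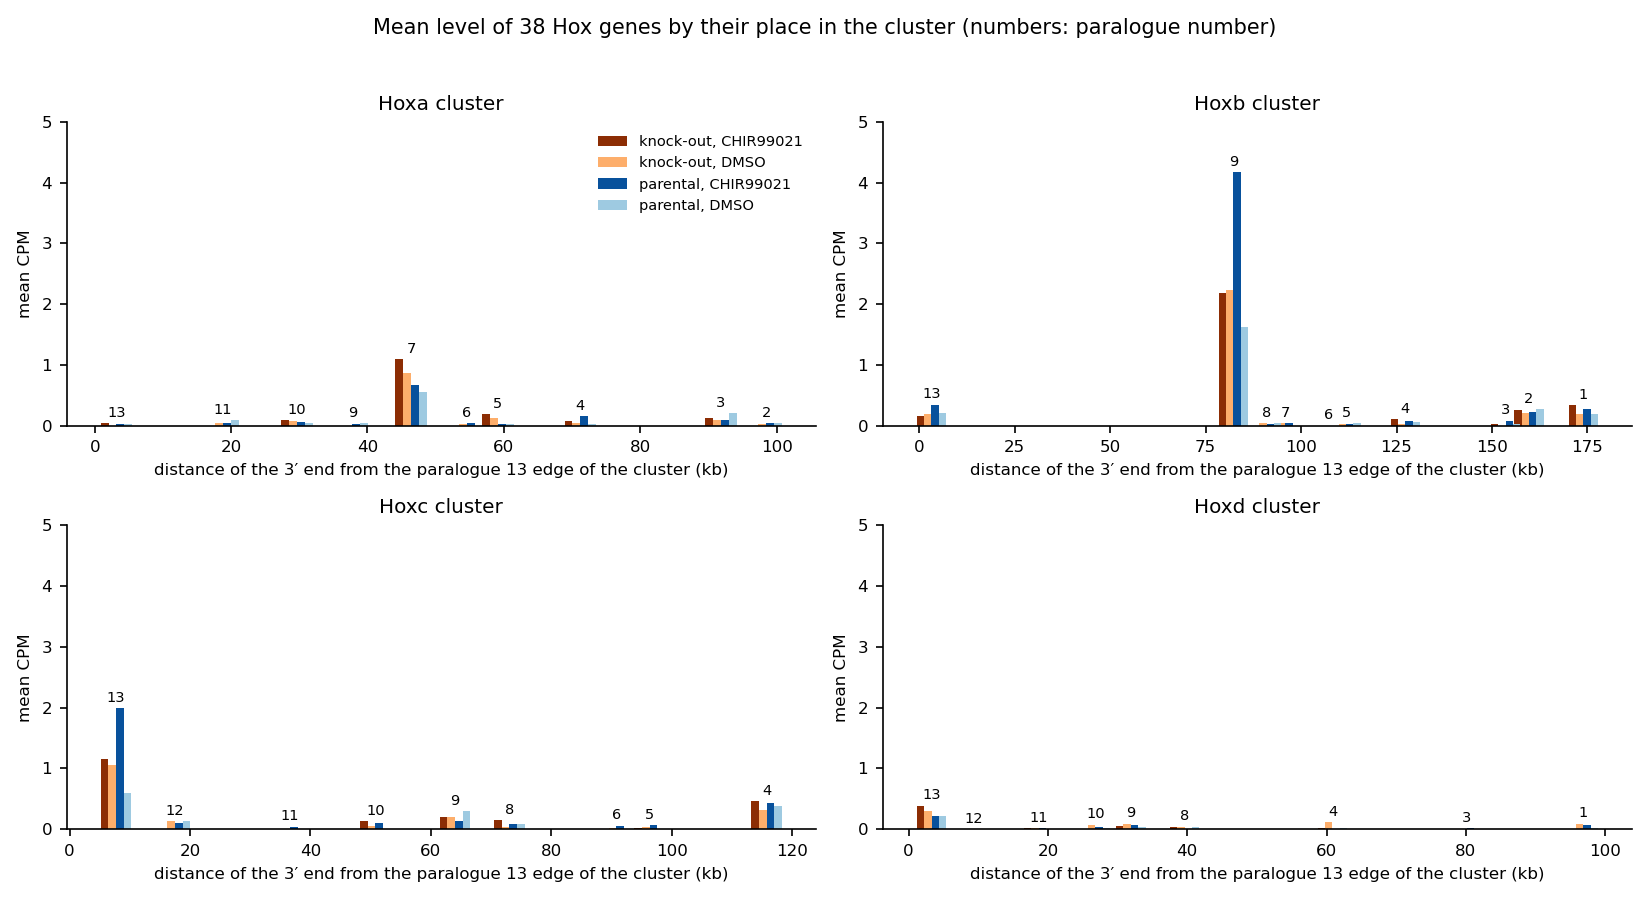
Mean CPM of 38 Hox genes (bars, 2 libraries per group) against the distance of its 3′ end from the paralogue 13 edge of its cluster in kb, with the paralogue number above the bars. Hoxb9, Hoxc13 and Hoxa7 stand apart from near-empty neighbours in all 4 groups, and Hoxb9 and Hoxc13 reach their highest means, 4.17 and 1.99 CPM, in parental cells with CHIR99021.

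CHIR99021 raised 2 posterior genes in parental cells, Hoxb9 and Hoxc13. Hoxb9 patterns the thoracic skeleton and mammary gland in mice, and Hoxc13 is known for hair and nail formation. Of the 6 Hox genes tested, 2 rose and 0 fell (edgeR quasi-likelihood test, 2-sided, Benjamini-Hochberg adjusted p under 0.05 over 17739 genes), against 19.4% of all genes tested that passed (9.1% rose and 10.3% fell). The median log2 fold change was 0.27 over the 6 Hox genes and 0.004 over all genes tested.

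Hoxb9 had 64 and 54 counts in knock-out cells with CHIR99021, 62 and 58 in knock-out cells with DMSO, 128 and 82 in parental cells with CHIR99021, and 38 and 39 in parental cells with DMSO. The parental libraries with CHIR99021 stood above all the others, although they differed from each other more than any other pair, and the parental libraries with DMSO stood below all the others. In parental cells the mean was 4.17 ± 1.04 CPM with CHIR99021 and 1.62 ± 0.00926 CPM with DMSO (SD, n = 2 each), which is a log2 fold change of 1.36 ± 0.22 (SE, edgeR adjusted p = 0.00111). In knock-out cells the mean was 2.18 ± 0.133 CPM with CHIR99021 and 2.23 ± 0.0248 CPM with DMSO (SD, n = 2 each), which is a log2 fold change of -0.03 ± 0.22 (SE, edgeR adjusted p = 0.954). From the summed counts, 118 with CHIR99021 and 120 with DMSO, the ratio in knock-out cells was 0.979 with a 95% interval of 0.753 to 1.27, which covers counting error alone. The corresponding ratio in parental cells, from 210 and 77 counts, was 2.58 with an interval of 1.98 to 3.4.

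Hoxc13 had 32 and 30 counts in knock-out cells with CHIR99021, 27 and 30 in knock-out cells with DMSO, 45 and 54 in parental cells with CHIR99021, and 13 and 15 in parental cells with DMSO. As for Hoxb9, both knock-out groups lay between the parental ones, and the parental groups did not overlap. In parental cells the mean was 1.99 ± 0.378 CPM with CHIR99021 and 0.59 ± 0.0455 CPM with DMSO (SD, n = 2 each), which is a log2 fold change of 1.74 ± 0.29 (SE, edgeR adjusted p = 0.00152). In knock-out cells the mean was 1.15 ± 0.0155 CPM with CHIR99021 and 1.06 ± 0.117 CPM with DMSO (SD, n = 2 each), which is a log2 fold change of 0.11 ± 0.27 (SE, edgeR adjusted p = 0.858). The ratio of summed counts in knock-out cells was 1.08 with a counting interval of 0.743 to 1.58, and in parental cells 3.35 with an interval of 2.18 to 5.3.

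**Figure D3:**
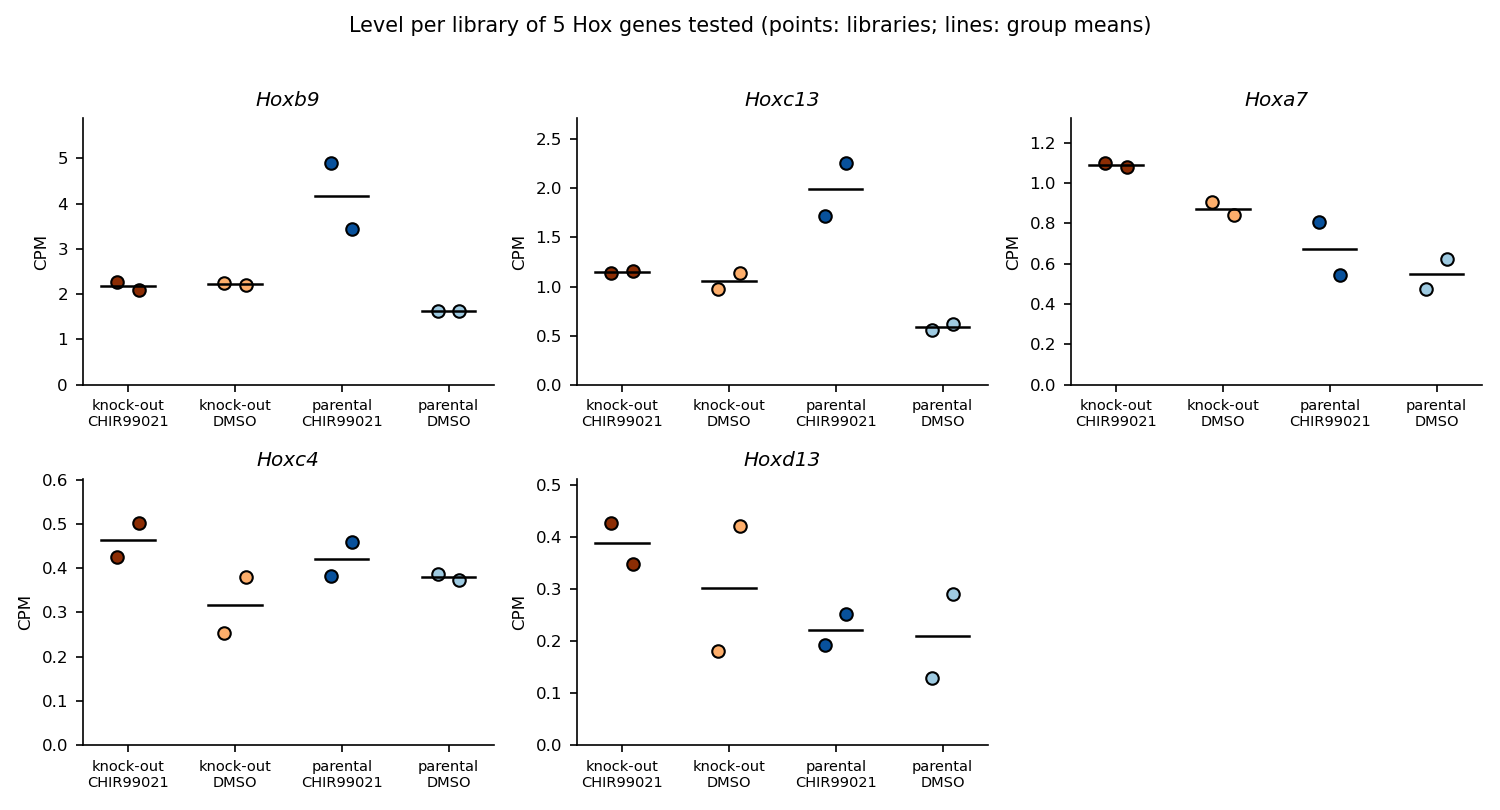
CPM in each library (points) and the group mean (line) for 5 of the 6 Hox genes tested, each on its own axis from 0. For Hoxb9 and Hoxc13 the parental libraries with CHIR99021 lie above the other 6 and the parental libraries with DMSO below them, whereas for Hoxc4 and Hoxd13 no group stands apart from all the others.

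In knock-out cells, none of the 6 Hox genes tested passed the threshold for CHIR99021 against DMSO, where 7.06% of all genes tested did (2.88% rose and 4.18% fell). The count was 0 with edgeR, 0 at an unadjusted p under 0.05 and 0 with limma-voom, while DESeq2 gave an adjusted p to 0 of the 6 and so made no test of them here. The difference between the responses was tested directly as the interaction, the response in knock-out cells minus that in parental cells. It was -1.39 ± 0.31 on the log2 scale for Hoxb9 (SE, edgeR adjusted p = 0.0215) and -1.63 ± 0.4 for Hoxc13 (SE, edgeR adjusted p = 0.0366), against 6.13% of all genes tested that passed, 3.22% above 0 and 2.91% below 0. Of the 6 Hox genes, 2 passed with edgeR and 1 with limma-voom (Hoxb9). DESeq2 called neither, with an adjusted p of 0.0897 for Hoxb9 and none given for Hoxc13. Over the alternatives tried the value stayed between -1.62 and -1.11 for Hoxb9 and between -1.81 and -1.43 for Hoxc13, but the calls were close to the threshold. Dropping single libraries, each of the 8 once, gave an edgeR adjusted p of 0.0516 to 0.122 for Hoxc13. For Hoxb9 it was over 0.05 without parental DMSO replicate 1 (0.0674) or 2 (0.0628), parental CHIR99021 replicate 1 (0.0781), knock-out DMSO replicate 1 (0.0683), or knock-out CHIR99021 replicate 1 (0.0562) or 2 (0.0881).

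With CHIR99021, both genes were lower in knock-out than in parental cells. Hoxb9 averaged 2.18 ± 0.133 CPM in knock-out cells and 4.17 ± 1.04 CPM in parental cells (SD, n = 2 each), which is a log2 fold change of -0.94 ± 0.21 (SE, edgeR adjusted p = 0.00702). Hoxc13 averaged 1.15 ± 0.0155 CPM in knock-out cells and 1.99 ± 0.378 CPM in parental cells (SD, n = 2 each), which is a log2 fold change of -0.79 ± 0.26 (SE, edgeR adjusted p = 0.0478). Of the 6 Hox genes tested, 0 rose and 2 fell, against 23.7% of all genes tested that passed (11.2% rose and 12.5% fell). The Hoxc13 call ended with DESeq2 (adjusted p = 0.289) and without any 1 of the 8 libraries (0.0557 to 0.252, the highest without parental CHIR99021 replicate 2). The Hoxb9 call ended without parental CHIR99021 replicate 1 (0.0775) or knock-out CHIR99021 replicate 2 (0.058). This comparison and the one of CHIR99021 against DMSO in parental cells share the parental libraries with CHIR99021, so they are not separate evidence.

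With DMSO, the direction was the other way and did not pass. Hoxb9 averaged 2.23 ± 0.0248 CPM in knock-out cells and 1.62 ± 0.00926 CPM in parental cells (SD, n = 2 each), which is a log2 fold change of 0.46 ± 0.23 (SE, edgeR adjusted p = 0.285). Hoxc13 averaged 1.06 ± 0.117 CPM in knock-out cells and 0.59 ± 0.0455 CPM in parental cells (SD, n = 2 each), which is a log2 fold change of 0.84 ± 0.31 (SE, edgeR adjusted p = 0.143). The counting intervals of the ratios, 1.02 to 1.85 for Hoxb9 and 1.12 to 2.93 for Hoxc13, lay above 1, but they cover counting error alone. Of the 6 genes, 0 passed with edgeR, 1 (Hoxc13) had an unadjusted p under 0.05, and 0 passed with limma-voom (DESeq2 gave an adjusted p to 0 of the 6), where 6.75% of all genes tested passed (3.13% rose and 3.62% fell).

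The other 4 tested genes passed in none of the 5 comparisons with edgeR or limma-voom, and 0 of their tests had an unadjusted p under 0.05. DESeq2 gave no adjusted p to Hoxa7, Hoxc4 or Hoxd13 in any of them. Hoxa7, a central gene at chr6:52214491-52221854 on the minus strand that patterns the thoracic vertebrae, had 31 and 28 counts in knock-out cells with CHIR99021, 25 and 22 in knock-out cells with DMSO, 21 and 13 in parental cells with CHIR99021, and 11 and 15 in parental cells with DMSO. All 4 knock-out libraries had more counts than any parental library. The log2 fold change of knock-out against parental cells was 0.68 ± 0.33 with CHIR99021 and 0.67 ± 0.35 with DMSO (SE, edgeR adjusted p = 0.166 and 0.317), neither of which passed. Words of 31 bases shared with opposite-strand transcripts, chiefly the antisense gene Hoxaas3, made up 19.6% of those of Hoxa7. Hoxaas3 itself had 13 counts over all libraries.

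Hoxc4, a cervical and thoracic patterning gene at chr15:103018934-103036852 on the plus strand, had 12 and 13 counts in knock-out cells with CHIR99021, 7 and 10 in knock-out cells with DMSO, 10 and 11 in parental cells with CHIR99021, and 9 and 9 in parental cells with DMSO. Hoxd13, which patterns the digits and lies at chr2:74668310-74671599 on the plus strand, had 12 and 9, 5 and 11, 5 and 6, and 3 and 7 counts in the same order of groups. At this depth the SE of a log2 fold change was 0.45 to 0.49 for Hoxc4 and 0.58 to 0.7 for Hoxd13 over the 4 comparisons of groups, and small changes were not detectable at this depth. Their largest changes were 0.54 ± 0.46 for Hoxc4 (CHIR99021 against DMSO in knock-out cells) and 0.8 ± 0.62 for Hoxd13 (knock-out against parental cells with CHIR99021), with edgeR adjusted p = 0.535 and 0.394.

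The 33 untested genes held too few counts for a fold change, so summed counts were compared with exact binomial intervals that cover counting error alone. Together they had 111 counts in knock-out cells with CHIR99021, 108 in knock-out cells with DMSO, 118 in parental cells with CHIR99021 and 94 in parental cells with DMSO. The ratio of CHIR99021 to DMSO was 1.02 (0.778 to 1.35) in knock-out cells and 1.19 (0.899 to 1.58) in parental cells, so both intervals held 1. Of these genes, 13 reached 10 counts over the 8 libraries. In parental cells the interval lay above 1 for 1 of the 13, Hoxa4, a central gene with 8 counts with CHIR99021 and 1 with DMSO (ratio 7.58, 1.02 to 336). In knock-out cells it lay below 1 for 1 of the 13, Hoxc12, a posterior gene with 0 counts with CHIR99021 and 7 with DMSO (upper bound 0.691). Between genotypes with CHIR99021 it lay above 1 for 1 of the 13, Hoxa5, a gene of lung and neck patterning with 10 counts in knock-out cells and 1 in parental cells (ratio 9.25, 1.32 to 402), and with DMSO for 0 of the 13. These intervals are not adjusted for the number of genes looked at. Each of the intervals of Hoxa4, Hoxc12 and Hoxa5 held 1 once a library was left out (for Hoxa4 any of the 4 compared, for Hoxc12 any but knock-out DMSO replicate 2, for Hoxa5 knock-out CHIR99021 replicate 1 or parental CHIR99021 replicate 1). Leaving out 1 library moved the CHIR99021 ratio by over 1.5 times for 7 of the 13 genes in knock-out cells and 11 of the 13 in parental cells.

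Among the remaining anterior genes, Hoxb1, a hindbrain gene, had 18 counts in knock-out cells with CHIR99021, 10 in knock-out cells with DMSO, 14 in parental cells with CHIR99021 and 9 in parental cells with DMSO. Its CHIR99021 ratio was 1.79 (0.784 to 4.34) in knock-out cells. In parental cells the DMSO libraries held 8 and 1 counts, and the ratio was 1.47 with both, 6.75 without replicate 1 and 0.815 without replicate 2. Hoxb2, its neighbour in the hindbrain, had 14, 11, 11 and 13 counts in that order of groups, and Hoxa3, a gene of the thymus and neck, had 7, 5, 5 and 10. Among the posterior genes, Hoxb13, the most 5′ gene of the b cluster and known from prostate and tail, had 9, 10, 17 and 10 counts, a parental CHIR99021 ratio of 1.61 (0.697 to 3.94) that was 0.908 without parental CHIR99021 replicate 2. Hoxc9, a paralogue of Hoxb9, had 11, 11, 7 and 14 counts, with a parental ratio of 0.474 (0.162 to 1.25), which was 0.815 without parental DMSO replicate 2. Hoxc10 had 7, 3, 5 and 0 counts, Hoxd9 3, 5, 3 and 2, and Hoxa10 5, 4, 3 and 2. No order between the groups can be read from such counts.

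**Figure D4:**
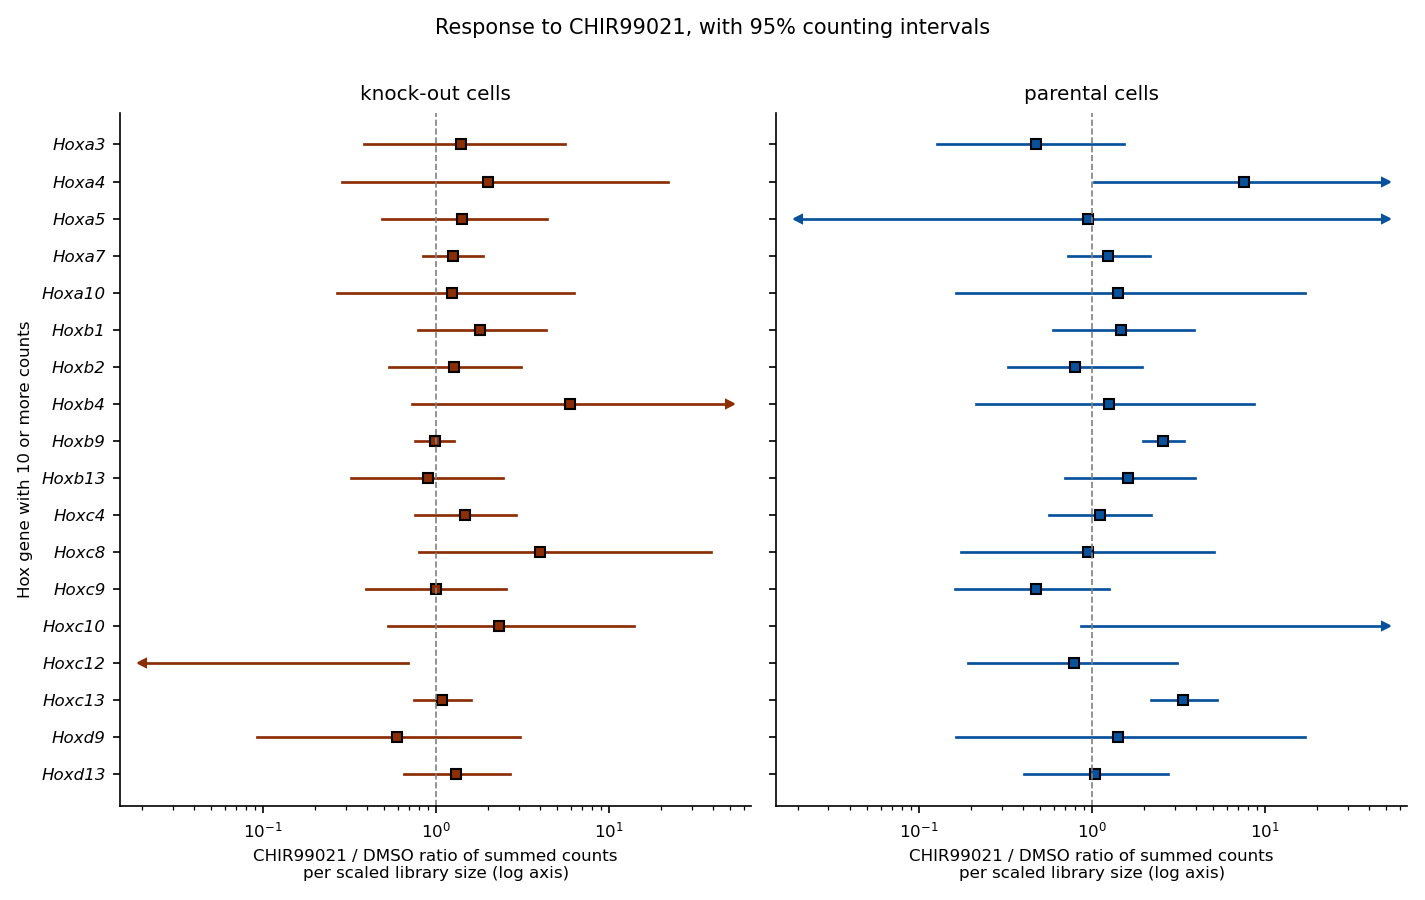
Ratio of summed counts with CHIR99021 to those with DMSO, per scaled library size, for 18 Hox genes with 10 or more counts, in knock-out cells (left) and parental cells (right), on a log axis; lines are 95% counting intervals and arrowheads mark ends beyond the axis. In parental cells Hoxb9 (2.58) and Hoxc13 (3.35) stand clear of 1 with narrow intervals, and in knock-out cells both sit near 1 (0.979 and 1.08).

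By cluster, the interval of the ratio of CHIR99021 to DMSO in parental cells lay above 1 for b and c, and in both it held 1 once the gene called was left out. The b cluster had 264 counts in parental cells with CHIR99021 and 117 with DMSO, giving a ratio of 2.14 (1.71 to 2.68), and without Hoxb9 54 and 40 counts, a ratio of 1.28 (0.834 to 1.98). The c cluster had 149 counts with CHIR99021 and 70 with DMSO, giving a ratio of 2.02 (1.51 to 2.72), and without Hoxc13 50 and 42 counts, a ratio of 1.13 (0.733 to 1.74). The a cluster had 160 and 130 counts and a ratio of 1.17 (0.919 to 1.48), and the d cluster 21 and 17, a ratio of 1.17 (0.588 to 2.36) that was 0.748 without parental CHIR99021 replicate 2. Over all 39 genes there were 594 counts with CHIR99021 and 334 with DMSO, giving a ratio of 1.69 (1.47 to 1.93), and without Hoxb9 and Hoxc13 there were 285 and 229 and the ratio was 1.18 (0.988 to 1.41). For the same genes in knock-out cells, 333 counts with CHIR99021 and 285 with DMSO gave a ratio of 1.16 (0.99 to 1.37), or 1.24 (1.01 to 1.52) without knock-out DMSO replicate 2.

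In knock-out cells no cluster's interval excluded 1 with all libraries. The ratio of CHIR99021 to DMSO was 1.22 (0.992 to 1.51) for the a cluster, 1.06 (0.846 to 1.32) for b, 1.13 (0.86 to 1.5) for c and 0.715 (0.423 to 1.19) for d. For the a cluster it lay above 1 without knock-out CHIR99021 replicate 2 (1.34, 1.04 to 1.7) or knock-out DMSO replicate 2 (1.37, 1.05 to 1.81). Between genotypes with DMSO, the d cluster had 39 counts in knock-out cells and 17 in parental cells, a ratio of 2.02 (1.12 to 3.81), whose interval held 1 without knock-out DMSO replicate 1 (0.868 to 3.77) or parental DMSO replicate 1 (0.798 to 3.44). The gap was spread over several genes with few counts each, among them Hoxd13 (16 and 10), Hoxd4 (6 and 1) and Hoxd1 (5 and 1). Hoxd3 and Hoxd4 share 61.1% and 49.1% of their words with other genes on the same strand, among them each other. With CHIR99021 the d cluster had 28 counts in knock-out cells and 21 in parental cells, a ratio of 1.23 (0.676 to 2.29), and 1.93 without parental CHIR99021 replicate 2.

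By paralogue number, the interval of that ratio lay above 1 for the posterior genes (9 to 13) and held 1 for the central and anterior genes in parental cells. Posterior genes had 369 counts in parental cells with CHIR99021 and 157 with DMSO, giving a ratio of 2.23 (1.84 to 2.7), and 60 and 52 counts without Hoxb9 and Hoxc13, a ratio of 1.09 (0.742 to 1.62). Central genes (4 to 8) had 84 and 60 counts and a ratio of 1.33 (0.941 to 1.88), or 1.51 (1.02 to 2.24) without parental CHIR99021 replicate 2, and anterior genes (1 to 3) had 141 and 117, a ratio of 1.14 (0.887 to 1.47). In knock-out cells the ratio of CHIR99021 to DMSO was 0.991 (0.825 to 1.19) for posterior, 1.25 (0.946 to 1.66) for central and 1.21 (0.954 to 1.54) for anterior genes, or 1.41 (1.03 to 1.94) for anterior genes without knock-out DMSO replicate 2. Within the posterior class, the parental ratio was 2.2 (1.73 to 2.83) for paralogues 9 and 2.48 (1.77 to 3.51) for paralogues 13. Hoxb9 held 210 of the 221 counts of paralogues 9 with CHIR99021 and 77 of the 95 with DMSO. Hoxc13 held 99 of the 128 counts of paralogues 13 with CHIR99021 and 28 of the 49 with DMSO. The sets numbered 10, 11 and 12 held at most 12 counts in any group.

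Most of the tested genes in a list of Cdx, ParaHox and posterior regulators rose with CHIR99021 in parental cells. Of 15 genes in the list, 7 were tested. Each untested member had at most 11 counts over both parental libraries with CHIR99021 (Pdx1) and at most 16 with DMSO (Gsx1). In parental cells 5 rose with CHIR99021 and 0 fell, with a median log2 fold change of 3.83, and in knock-out cells 1 rose and 0 fell, with a median of -0.52. Over all genes tested, 9.1% rose and 10.3% fell in parental cells, and 2.88% rose and 4.18% fell in knock-out cells. Cdx1, a caudal homeobox factor that binds Hox clusters, was at 3.59 and 3.63 CPM in knock-out cells with CHIR99021, 0.943 and 1.79 CPM in knock-out cells with DMSO, 103 and 106 CPM in parental cells with CHIR99021, and 1.8 and 1.83 CPM in parental cells with DMSO. It rose in both lines, with a log2 fold change of 1.41 ± 0.2 in knock-out cells and 5.84 ± 0.13 in parental cells (SE, edgeR adjusted p = 0.00247 and 1.06e-09), and the responses differed (interaction -4.44 ± 0.29, adjusted p = 7.01e-06).

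T, the mesoderm factor Brachyury, averaged 0.108 CPM in knock-out cells with CHIR99021, 0.334 CPM in knock-out cells with DMSO, 11.3 CPM in parental cells with CHIR99021 and 0.34 CPM in parental cells with DMSO. Nkx1-2, a homeobox gene of the caudal epiblast, averaged 0.0579, 0.0925, 10.9 and 0.234 CPM in the same order. In parental cells the log2 fold change was 5.05 ± 0.31 for T and 5.53 ± 0.36 for Nkx1-2 (SE, edgeR adjusted p = 9.92e-07 and 1.49e-06). Cdx2, the caudal factor also used by trophectoderm, rose by 3.83 ± 0.71 from few counts, with 78 over both parental libraries with CHIR99021 and 5 with DMSO, against 9 and 13 counts in knock-out cells (edgeR adjusted p = 0.00306 in parental cells). Wnt3a, the tail bud Wnt ligand, rose by 1.54 ± 0.48 in parental cells (SE, edgeR adjusted p = 0.0461).

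Cdx4, the third caudal factor, was not tested and had 10 counts in knock-out cells with CHIR99021, 9 in knock-out cells with DMSO, 7 in parental cells with CHIR99021 and 10 in parental cells with DMSO, a parental ratio of 0.663 (0.214 to 1.93). Evx1, which lies beside the a cluster at its 5′ end, had 1, 7, 6 and 8 counts in that order of groups. Between genotypes with CHIR99021, 1 gene of the list rose and 5 fell in knock-out cells (11.2% and 12.5% of all genes tested), the 5 being those that CHIR99021 raised in parental cells, with which this comparison shares libraries. Gata4 rose in knock-out cells under both treatments, by 1.24 ± 0.14 with CHIR99021 and 1.08 ± 0.14 with DMSO (SE, edgeR adjusted p = 9.79e-05 and 0.00171).

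**Figure D5:**
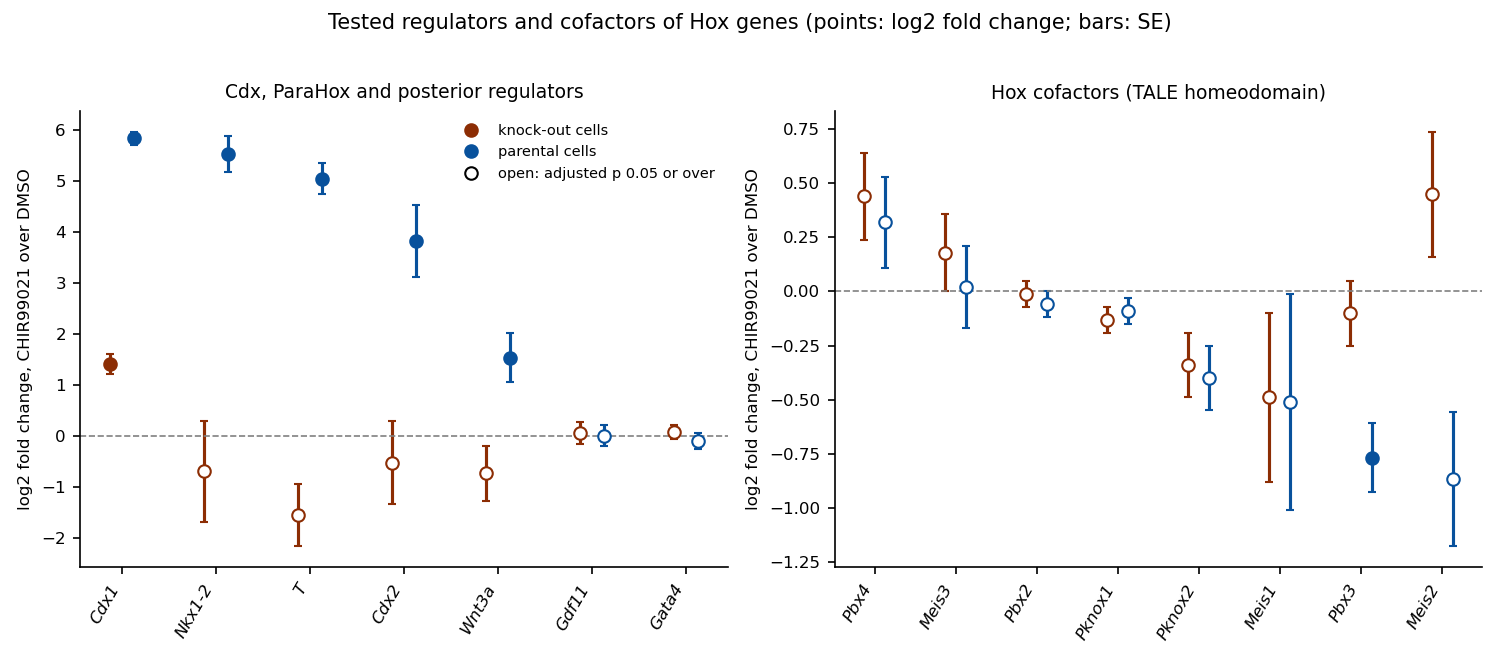
Log2 fold change of CHIR99021 over DMSO with its SE (edgeR) for the 7 tested members of the regulator list (left panel) and 8 of the cofactor list (right panel, with a narrower axis), in knock-out cells and, to their right, parental cells; filled points passed an adjusted p of 0.05. Cdx1 rose in both lines (1.41 and 5.84), and Pbx3 fell in parental cells (-0.77).

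Hox proteins bind DNA together with TALE homeodomain cofactors (the Pbx, Meis and Pknox families). All 9 were tested, and they summed to 115 to 152 CPM per library. In parental cells 0 rose and 2 fell with CHIR99021, a share near the 19.4% of all genes tested that passed, and in knock-out cells 0 rose and 0 fell, where 7.06% of all genes passed. Pbx3, one of the Pbx partners of Hox proteins, averaged 3.68 ± 0.427 CPM in knock-out cells with CHIR99021, 3.92 ± 0.0625 CPM in knock-out cells with DMSO, 3.06 ± 0.0653 CPM in parental cells with CHIR99021 and 5.21 ± 0.501 CPM in parental cells with DMSO (SD, n = 2 each). It fell by 0.77 ± 0.16 on the log2 scale in parental cells (SE, edgeR adjusted p = 0.00506). Its change in knock-out cells was -0.1 ± 0.15 (SE, edgeR adjusted p = 0.768), and the difference between these responses, 0.67 ± 0.22, did not pass (edgeR adjusted p = 0.103). In knock-out against parental cells with CHIR99021, Meis2, another cofactor, rose by 0.95 ± 0.3 (SE, edgeR adjusted p = 0.0416).

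Chromatin regulators of the clusters changed in both directions with CHIR99021. Of 24 Polycomb genes, whose complexes mark silent Hox chromatin, all were tested, and with CHIR99021 3 rose and 8 fell in parental cells while 1 rose and 4 fell in knock-out cells, where 19.4% and 7.06% of all genes tested passed. The changes that passed in parental cells ran from -0.83 to 0.8 on the log2 scale. The smallest adjusted p values in parental cells were those of Phc1, a subunit of the canonical repressive complex 1 (-0.65 ± 0.05), Jarid2 and Phf19, accessory subunits of repressive complex 2 (-0.41 ± 0.04 and -0.83 ± 0.09), and Kdm2b, which takes a variant complex 1 to CpG islands (-0.36 ± 0.04; edgeR adjusted p = 2.7e-06, 3.69e-05, 0.000102 and 0.000112). The median over the 24 genes was -0.01 in parental cells and -0.07 in knock-out cells. Of 12 Trithorax and H3K27 demethylase genes, which act against Polycomb, 0 rose and 3 fell in parental cells, a share near the 19.4% of all genes tested: Kmt2c (-0.57 ± 0.04), Kdm6a (-0.39 ± 0.06) and Rbbp5 (-0.23 ± 0.04; edgeR adjusted p = 4.89e-06, 0.00114 and 0.003). In knock-out cells 0 rose and 2 fell, Wdr5 and Dpy30, by 0.16 and 0.17 on the log2 scale.

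Retinoic acid opens the 3′ side of the clusters in the embryo, and of 19 genes listed for its pathway 14 were tested. With CHIR99021, 1 rose and 5 fell in parental cells, against 9.1% and 10.3% of all genes tested, and 0 rose and 2 fell in knock-out cells, against 2.88% and 4.18%. Rarg and Rara, nuclear receptors for retinoic acid, fell by 0.5 ± 0.05 and 0.52 ± 0.05 in parental cells (SE, edgeR adjusted p = 1.87e-05 and 2.2e-05). There Stra8, a target of retinoic acid in germ cells, fell by 0.88 ± 0.16, and Rxrg, a partner receptor, by 2.87 ± 0.56 (SE, edgeR adjusted p = 0.00221 and 0.00421). The Rxrg change rests on few counts, 5 over both parental libraries with CHIR99021 and 36 with DMSO. Cyp26a1, the enzyme that degrades retinoic acid and a target of it, had 3 counts in knock-out cells with CHIR99021, 2 in knock-out cells with DMSO, 1 in parental cells with CHIR99021 and 0 in parental cells with DMSO.

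Of 27 genes listed as flanking the clusters, 23 were tested, and their sum was 5430 to 5890 CPM per library. With CHIR99021, 3 rose and 7 fell in parental cells, and 1 rose and 2 fell in knock-out cells, where 19.4% and 7.06% of all genes tested passed in either direction. Beyond the Hoxb cluster, Calcoco2, an autophagy receptor, averaged 37.9 CPM in knock-out cells with CHIR99021, 52.5 CPM in knock-out cells with DMSO, 10.6 CPM in parental cells with CHIR99021 and 30.7 CPM in parental cells with DMSO, and Ttll6, a tubulin-modifying enzyme, averaged 19, 20.1, 5.04 and 10.4 CPM in that order. In parental cells they fell by 1.53 ± 0.07 and 1.04 ± 0.09 on the log2 scale (SE, edgeR adjusted p = 1.28e-07 and 1.35e-05). Hoxb9, in the same region, rose. Calcoco2 also fell in knock-out cells, by 0.47 ± 0.06 (SE, edgeR adjusted p = 0.00148). Of the 16 listed noncoding transcripts of the clusters found in the table, 0 passed the filter on low counts and 7 had 0 counts in every library. Outside that list, 2 annotated genes within the b cluster that are not Hox genes passed the filter, the noncoding RNA Gm53 and the pseudogene Gm11539, with 2862 and 105 counts over all libraries. Hotairm1, a noncoding transcript of the a cluster, had 11 counts in knock-out cells with CHIR99021, 12 in knock-out cells with DMSO, 12 in parental cells with CHIR99021 and 9 in parental cells with DMSO.

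Of the marker genes tested for caudal mesoderm and neural tube, where posterior Hox genes are normally active, 0 rose with CHIR99021 in parental cells. Over all genes tested, 9.1% rose and 10.3% fell in that comparison. With so few markers tested, a count of 0 is near that share. The 10 caudal mesoderm markers summed to 30.7 to 34.7 CPM in knock-out cells with CHIR99021, 35.9 to 43.7 CPM in knock-out cells with DMSO, 29.6 to 33.6 CPM in parental cells with CHIR99021 and 44.7 to 47 CPM in parental cells with DMSO. Of these 10, 5 were tested, 2 fell in parental cells (Meox1 and Tcf15), and the defining gene Msgn1 was at 0 in every library. The 12 neural tube markers summed to 43 to 44.7 CPM in parental cells with CHIR99021 and 88.3 to 89.8 CPM with DMSO, with 3 of 4 tested falling and Neurog1 and Neurog2 at 0 throughout. The 8 endoderm markers summed to 5.48 to 6.82 CPM in parental cells with CHIR99021 and 14.5 to 15.5 CPM with DMSO, with 1 of 2 tested falling (Sox7) and Ttr at 0. The 8 lateral and extraembryonic mesoderm markers summed to 87.3 to 88.7 CPM in parental cells with CHIR99021 and 85.4 to 88.3 CPM with DMSO, with 2 of 5 tested falling. Each of these sums was mostly 1 gene. In parental cells with CHIR99021 and with DMSO, Tcf15 (caudal mesoderm) averaged 27.2 and 39.9 CPM. Tubb3 (neural tube) averaged 33.7 and 73.8 CPM, Sox7 4.74 and 14.1 CPM, and Bmp4 (lateral mesoderm) 82.6 and 76.5 CPM. The sums therefore do not describe the lists as wholes.

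Fibroblast markers were counted because fibroblasts carry an active Hox code, although the cells grew without feeders. They were low, and 2 of the 3 tested rose with CHIR99021 in parental cells, where 9.1% of all genes tested rose. The 10 genes summed to 11.7 to 13.3 CPM in knock-out cells with CHIR99021, 10.5 to 11.3 CPM in knock-out cells with DMSO, 9.73 to 10.1 CPM in parental cells with CHIR99021 and 6.4 to 6.89 CPM in parental cells with DMSO. Of these 10, 3 were tested. Col1a1 averaged 1.64 CPM in parental cells with CHIR99021 and 1.58 CPM with DMSO. Thy1 and Pdgfra rose in parental cells with CHIR99021 (0.66 ± 0.13 and 0.84 ± 0.25, SE, edgeR adjusted p = 0.00456 and 0.0335). Postn, Lum and Dcn, defining genes of fibroblasts, were at 0 in every library. Thy1 and Pdgfra were also higher in knock-out than in parental cells with DMSO, where 3.13% of all genes tested rose. The highest sums were in knock-out cells with CHIR99021. The part of these marker genes in the Hox values was not tested.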

How the data were processed

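Messenger RNA was measured in 8 libraries, 2 per group, prepared with a stranded TruSeq kit, per the labels' protocols. The authors deposited a table of estimated counts per gene, made with kallisto on GRCm38.p4, per the submitters' processing notes; the kallisto version, the transcript set and the strand setting are not given in the sources used here. Groups came from the labels, and the 39 genes were found by symbol and matched to GENCODE M21 of GRCm38.

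Counts were rounded, filtered with filterByExpr of edgeR 4.0.16 (minimum 10 counts, 15 in total), which kept 17739 genes with 99.905% to 99.918% of each library, scaled by trimmed mean of M values, and fitted over all 8 libraries with 1 mean per group (4 residual degrees of freedom, common biological coefficient of variation 0.0532). The 5 comparisons used quasi-likelihood F tests with Benjamini-Hochberg adjustment at 0.05 over all genes tested. SE is the absolute log2 fold change over the root of F. Members under the filter are given as summed counts with exact 95% binomial (Clopper-Pearson) intervals of ratios, and library totals of 23650572 to 27680649 set the precision. Alternatives were DESeq2 1.42.0, limma-voom (limma 3.58.1), relative log expression factors, no filter, a minimum of 1 CPM in 2 libraries, fits of only the groups compared, a replicate block, and fits without each library.

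Tested Hox genes are described by library, others by summed counts, and each of the 13 lists (179 genes) by its counts with up to 4 members of smallest adjusted p, plus Cdx1, Cdx2, Cdx4, T and Cyp26a1. The members and lists were chosen with earlier results of these data known, and a few items are not reported here. Shared words are 31-base stretches, compared between the GENCODE M21 transcripts of a Hox gene and those of all other genes. Chromosome, start, end and strand are those of GENCODE M21.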

Additional observations from a re-analysis of the deposited data

Results flagged for a closer look

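For Hoxb9 the response to CHIR99021 differed between the lines by the interaction test: the response in knock-out cells minus that in parental cells was -1.39 ± 0.31 on the log2 scale (SE, edgeR adjusted p = 0.0215). For Hoxc13 the same difference was -1.63 ± 0.4 (SE, edgeR adjusted p = 0.0366). In both genes the knock-out responses were near 0 and the parental ones above it. The difference also takes in the gap between the lines with DMSO, 0.46 ± 0.23 for Hoxb9 and 0.84 ± 0.31 for Hoxc13. That gap did not pass (SE, edgeR adjusted p = 0.285 and 0.143). DESeq2 called neither interaction and gave Hoxc13 no adjusted p.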

How the results depend on the processing

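Over the 407 log2 fold changes of the 6 tested Hox genes recomputed under an alternative, 378 stayed on their side of the threshold, 29 lost the call with the same direction, and 0 called values changed direction. The rise of Hoxb9 and Hoxc13 with CHIR99021 in parental cells was called in 15 of 15 alternatives, with adjusted p of 1.01e-07 to 0.0119 and 4.51e-06 to 0.0158. For knock-out against parental cells with CHIR99021, the count of Hox genes called, 2 in the main test, was 1 with DESeq2, 1 with the compared groups alone and 1 with the replicate block, and 0 to 1 when a library was left out. The gene lost was Hoxc13 (adjusted p = 0.289 with DESeq2, 0.0531 with the compared groups and 0.0529 with the block). Hoxb9 was lost without parental CHIR99021 replicate 1 (0.0775) or knock-out CHIR99021 replicate 2 (0.058). For the interaction the count, 2 in the main test, was 0 with DESeq2 (Hoxb9 0.0897, Hoxc13 given no adjusted p), 1 with limma-voom (Hoxc13 0.0514) and 0 to 1 when a library was left out. In the other comparisons no alternative that gave an adjusted p changed a call. DESeq2 gave an adjusted p to 3 of the 6 genes for CHIR99021 in parental cells, 3 for the genotypes with CHIR99021, 2 for the interaction and 0 in the other 2 comparisons, which it therefore did not test. Same-numbered libraries did not deviate together (correlations of -0.056 to 0.104), so no pairing by replicate number was seen. With 2 libraries per group these correlations cannot exclude that same-numbered libraries were handled together. The block changed no call other than that of Hoxc13 above. When a library was left out, the lone library of its group was assumed to vary like the others. The cause of the lost calls was not tested. Of the cluster sums, the ratio of the d cluster for knock-out against parental cells with CHIR99021, 1.23, was 1.93 without parental CHIR99021 replicate 2, and that for CHIR99021 in parental cells, 1.17, was 0.748 without it. The ratios of summed counts without each library, other than the planned cluster sums, were added after seeing the data. Depth limits these results: 33 of 39 genes were not tested, and without the filter on low counts 37 were tested with the same number of calls in each comparison.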

Other observations

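The annotated gene with the most counts within the span of a Hox cluster was not a Hox gene. Gm53, a long intergenic noncoding RNA chosen here after its values were seen, lies at chr11:96251105-96264868 on the plus strand between Hoxb13 and Hoxb9, and ends 6.59 kb before the annotated start of Hoxb9. It had 410 and 349 counts in knock-out cells with CHIR99021, 285 and 296 in knock-out cells with DMSO, 511 and 448 in parental cells with CHIR99021, and 284 and 279 in parental cells with DMSO. Both groups with CHIR99021 stood above both groups with DMSO, with no overlap. The log2 fold change for CHIR99021 was 0.38 ± 0.08 in knock-out cells and 0.69 ± 0.08 in parental cells (SE, edgeR adjusted p = 0.0231 and 0.000131), and the difference between these responses, -0.31 ± 0.12, did not pass (edgeR adjusted p = 0.155). Between genotypes it was lower in knock-out than in parental cells with CHIR99021 (-0.45 ± 0.08, edgeR adjusted p = 0.00195), and with DMSO the change was -0.14 ± 0.09 (edgeR adjusted p = 0.404). The microRNA gene Mir196a-1, at chr11:96265164-96265265 directly after it, had 10, 2, 14 and 11 counts in knock-out cells with CHIR99021, knock-out cells with DMSO, parental cells with CHIR99021 and parental cells with DMSO.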
